A study of Mus musculus with 16 samples.

Results

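The 10 genes described here belong to hepatic bile acid synthesis and its feedback control by the bile acid receptor FXR, measured in mouse livers that lack, or carry 1 working copy of, the gene for methylmalonyl-CoA mutase (Mut in the labels, now Mmut). They are Cyp7a1, Cyp8b1, Cyp27a1, Cyp7b1, Cyp39a1, Akr1d1, Slc27a5, Baat, Nr1h4 and Nr0b2. The choice was by symbol, all 10 were found, each with 1 probe set, and they are 10 of 19938 named genes on 16 Affymetrix Mouse Gene 1.0 ST arrays. Each array held the RNA of 1 liver, with 4 arrays in each of 4 groups. All mice were males of 4 months and all carried the transgene TgINS-MCK-Mut, in which the muscle creatine kinase (MCK) promoter drives the mutase, so that the transgene serves muscle and not liver. The groups were fasted mutants (Mut -/-, fasted for 8 to 12 hours), fasted heterozygotes (Mut +/-, fasted for 12 hours), unfasted mutants and unfasted heterozygotes. The heterozygotes were the controls and no wild-type mouse was among them, and the fast was not of one length in both genotypes, so genotype and length of fast cannot be told apart in the fasted comparison.

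Bile acids are made from cholesterol in hepatocytes by a classic and an alternative route. Cyp7a1 opens the classic route, Cyp8b1 sets how much of its product becomes cholic acid, and Cyp27a1, Cyp7b1 and Cyp39a1 act on the side chain or on oxysterols in the alternative route. Akr1d1 reduces the sterol ring in both, and Slc27a5 and Baat then join the bile acid to coenzyme A and to taurine or glycine. Bile acids bind FXR, the product of Nr1h4, which induces Nr0b2 (small heterodimer partner, SHP), and SHP lowers transcription of Cyp7a1 and Cyp8b1. In mouse liver Cyp7b1 is known to be higher in males and Cyp39a1 in females.

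Values are log2 RMA levels as deposited, and differences are log2 differences ± standard error from 1 limma fit to all 16 arrays. A gene is called when its p-value, adjusted over all 19938 genes, is under 0.05. Mmut itself read 8.04 ± 0.20 in unfasted mutants against 9.82 ± 0.11 in unfasted heterozygotes, and 8.09 ± 0.20 in fasted mutants against 9.89 ± 0.15 in fasted heterozygotes (SD, n = 4 each), without overlap. The livers had hepatocyte transcripts at high levels on all 16 arrays, Alb between 13.49 and 13.66 and Ttr between 13.27 and 13.44. The summed level of 10 hepatocyte markers lay between 16.34 and 16.40 in fasted mutants, 16.42 and 16.52 in fasted heterozygotes, 16.10 and 16.38 in unfasted mutants, and 16.32 and 16.47 in unfasted heterozygotes. Unfasted mutant replicate 1 stood apart in 7 genes of pancreatic acinar cells (Cpa1, Ctrb1, Cela2a, Cela3b, Cel, Cpb1 and Prss2). Cpa1 read 12.29 there and 6.84 to 7.22 on the 15 other arrays. Without that liver the unfasted genotype differences of the genes not called were 0.69 for Cyp7a1, -0.11 for Cyp27a1, -0.054 for Akr1d1, -0.14 for Nr0b2, 0.025 for Nr1h4 and -0.18 for Slc27a5, none of them called. Called differences without it were -2.79 for Cyp7b1, 1.88 for Cyp39a1 and -0.46 for Baat, and Cyp8b1 lost its call. Unfasted mutant replicate 4 read Fabp2, a fatty acid binding protein, at 7.75, below the 9.87 to 11.19 of the other arrays. The labels give no processing batch.

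**Figure D1:**
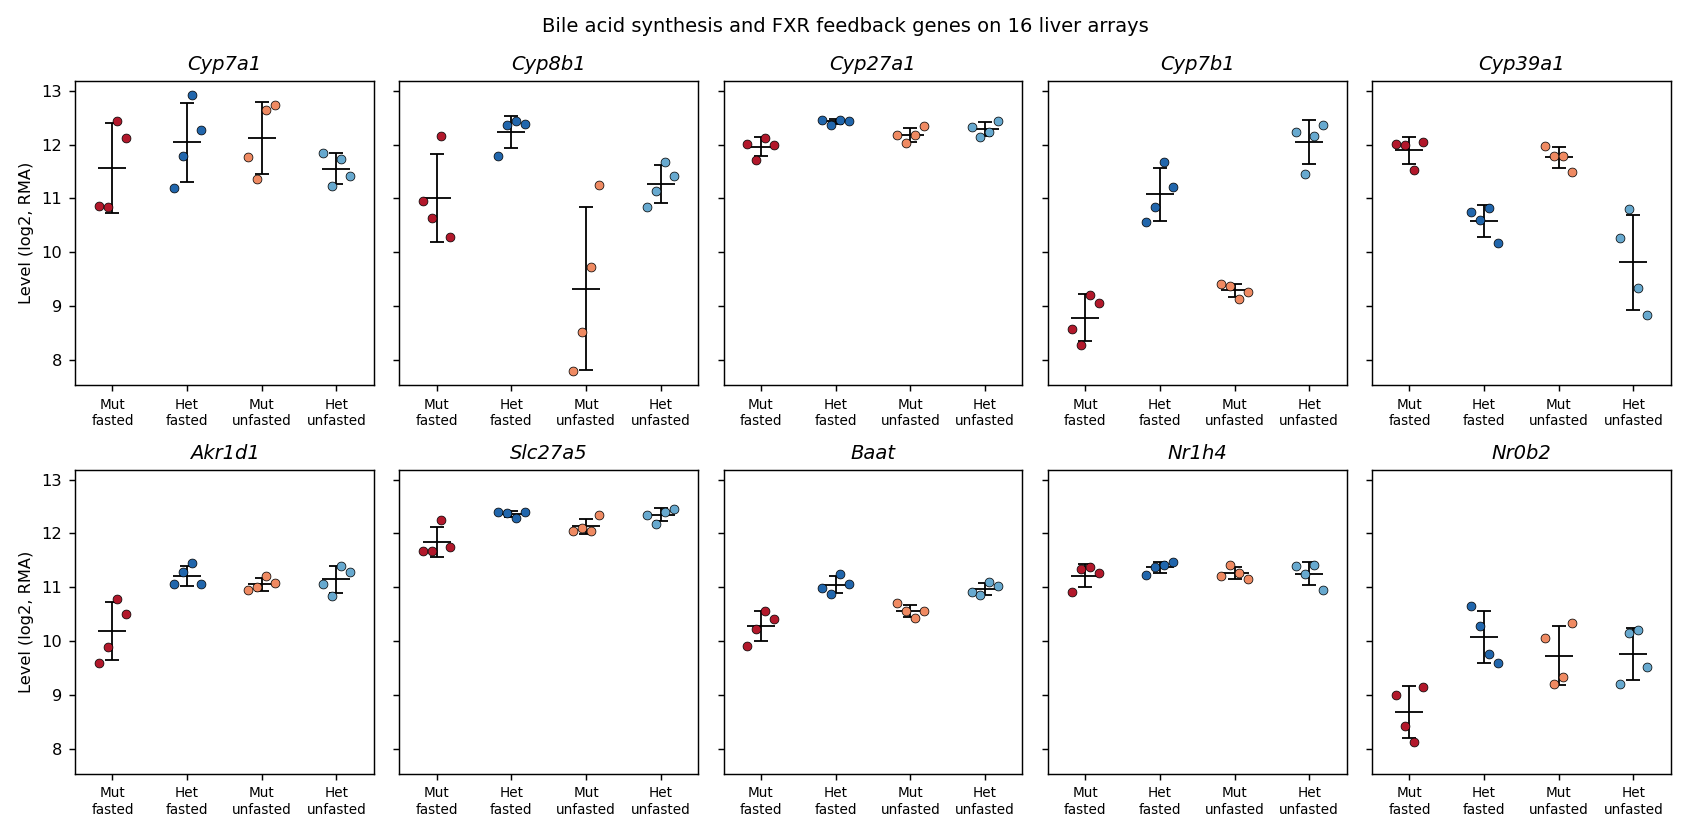
Level of each of the 10 genes (vertical axis, log2 RMA) in the 4 groups (horizontal axis); each point is 1 liver, and the bar and whiskers are the mean and SD of 4. Cyp7b1 and Baat are lower in all 8 mutant livers than in all 8 heterozygous livers and Cyp39a1 is higher, while the groups overlap for Cyp7a1 and Nr1h4.

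Genotype separated the enzymes of the alternative route in opposite directions, and Cyp7a1, the entry to the classic route, was not called in either feeding state. In fasted mutants 7 of the 10 genes were called against fasted heterozygotes, 1 higher and 6 lower, where 13.6% of all genes were called, 8.62% higher and 5.01% lower. In unfasted mutants 4 of 10 were called against unfasted heterozygotes, 1 higher and 3 lower, where 7.94% of all genes were called, 4.25% higher and 3.69% lower. The unfasted count was 3 without unfasted mutant replicate 1, and 2 when any 1 of 7 other livers was left out, namely mutant replicates 2 and 3 and heterozygous replicates 3 and 4 of the unfasted mice and heterozygous replicates 1, 2 and 4 of the fasted mice. The 1584 genes behind the unfasted share were 698 without unfasted heterozygous replicate 3, 815 without replicate 4 of that group, 1033 without unfasted mutant replicate 3 and 764 with the 8 compared arrays fitted alone. Without the liver holding acinar transcripts the fasted count was again 7. The median difference of the 10 genes was -0.65 in the fasted and -0.10 in the unfasted comparison, against -0.022 and 0.0052 over all genes. In bulk liver RNA, fewer cells of a type and less RNA per cell cannot be told apart.

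Markers of other liver cells moved with genotype beside these counts, where 8.62% of all genes were called higher in fasted and 4.25% in unfasted mutants. Of 9 endothelial markers 7 rose in fasted and 6 in unfasted mutants. Their summed level was 13.22 to 13.43 in fasted mutants against 12.76 to 12.99 in fasted heterozygotes, and 13.14 to 13.48 in unfasted mutants against 12.72 to 13.08 in unfasted heterozygotes. Of 9 stellate cell and fibroblast markers 2 rose in fasted and 6 in unfasted mutants, with sums of 13.06 to 13.31 in fasted mutants against 12.84 to 13 in fasted heterozygotes, and 13.20 to 13.47 in unfasted mutants against 12.87 to 13.03 in unfasted heterozygotes. Of 10 macrophage markers 9 rose in fasted mutants. None was called by limma in unfasted mutants, where 4 were higher at an unadjusted p under 0.05. Their summed level was 13.18 to 13.59 in fasted mutants against 12.32 to 12.91 in fasted heterozygotes, and 12.56 to 13.31 in unfasted mutants against 12.30 to 12.91 in unfasted heterozygotes.

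The sum of 8 cholangiocyte markers was lower, at 9.71 to 9.92 in fasted mutants against 10.32 to 10.67 in fasted heterozygotes, and 9.89 to 10.36 in unfasted mutants against 10.57 to 10.71 in unfasted heterozygotes. Called among them were Slc10a2, the apical bile acid transporter, lower by genotype in both states (-2.47 ± 0.33 fasted, adjusted p = 0.00042, and -2.36 ± 0.33 unfasted, adjusted p = 0.00075), Sox9, lower in fasted mutants, and Tspan8, higher in unfasted mutants. The 8 cholangiocyte markers did not fall as a set. At an unadjusted p under 0.05, 3 of the 8 were higher and 1 lower in unfasted mutants. In fasted mutants none was higher and 2 were lower at that level. The sum adds linear levels, so the brightest markers weigh most in it. Of 10 hepatocyte markers 1 fell in fasted and 2 in unfasted mutants, where 5.01% and 3.69% of all genes were called lower. The part of these cell types in the levels of the 10 genes was not tested.

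**Figure D2:**
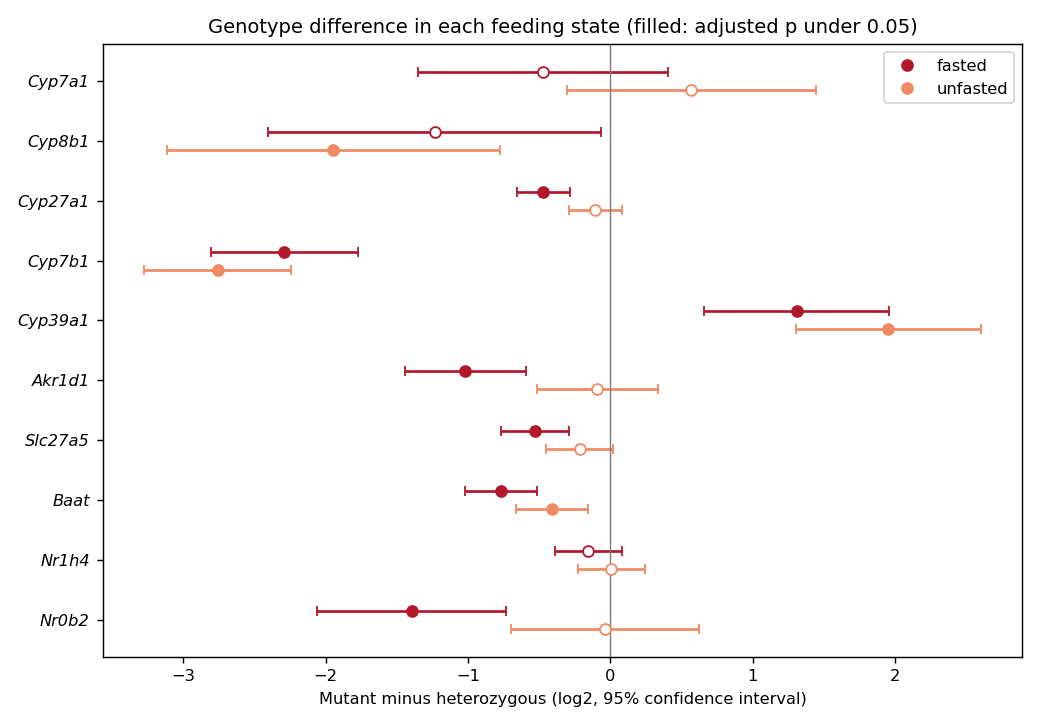
Mutant minus heterozygous log2 difference of each gene (horizontal axis) with its 95% confidence interval from limma; dark red is the fasted and orange the unfasted comparison, and filled points have an adjusted p under 0.05. Cyp39a1 is filled on the right of 0 in both states, Cyp7b1 on the left in both, and Akr1d1 and Nr0b2 are filled in the fasted state alone, a difference between states that was not called itself.

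Cyp7a1, cholesterol 7-alpha-hydroxylase, the rate-limiting enzyme of the classic route, varied widely between livers of 1 group. It read 10.86, 10.84, 12.45 and 12.13 in fasted mutants against 11.19, 11.78, 12.93 and 12.27 in fasted heterozygotes. In unfasted livers it read 11.77, 11.35, 12.64 and 12.73 in mutants against 11.84, 11.23, 11.73 and 11.42 in heterozygotes. Among fasted mutants replicates 1 and 2 lay below replicates 3 and 4 by more than 1 log2 unit, and every pair of compared groups overlapped. The genotype difference was -0.48 ± 0.41 in the fasted state (adjusted p = 0.45, 95% confidence interval -1.35 to 0.40) and 0.57 ± 0.41 in the unfasted state (adjusted p = 0.48, interval -0.31 to 1.45). These intervals include changes of more than 1 log2 unit, so a sizeable difference was not detectable rather than absent. Within fasted mutants the SD of 0.84 was larger than that of 99.7% of all genes.

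Cyp8b1, the enzyme that directs the pathway to cholic acid, was low in several unfasted mutants. It read 7.79, 8.51, 9.72 and 11.26 in unfasted mutants against 10.85, 11.14, 11.67 and 11.41 in unfasted heterozygotes. Replicates 1 to 3 of the mutants lay below every heterozygote and replicate 4 lay among them. The difference was -1.95 ± 0.55 (adjusted p = 0.041). This call was lost in 12 of 25 other settings, with adjusted p up to 0.12. They include a fit of the 8 compared arrays, robust variance moderation, and leaving out single livers, namely unfasted mutant replicates 1, 2 and 3, replicates 2, 3 and 4 of the unfasted heterozygotes, and each fasted heterozygote. Leaving out the liver with acinar transcripts gave a difference of -1.44 (adjusted p = 0.092). The spread within unfasted mutants, 1.52 (SD, n = 4), exceeded that of 99.9% of genes.

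After the fast Cyp8b1 read 10.96, 10.65, 12.15 and 10.28 in mutants against 11.79, 12.36, 12.43 and 12.38 in heterozygotes. Mutant replicate 3 reached the heterozygous range and the others lay below it. The difference of -1.23 ± 0.55 was not called (adjusted p = 0.15), but it passed when these 8 arrays were fitted alone (adjusted p = 0.036) and without unfasted mutant replicate 4 (adjusted p = 0.048). All 4 fasted heterozygotes lay above all 4 unfasted ones, a difference of 0.98 ± 0.55 that was not called (adjusted p = 0.54) except when these 8 arrays were fitted alone (adjusted p = 0.026). Groups did not overlap in this comparison for 10.4% of all genes. Fasted minus unfasted mutants gave 1.69 ± 0.55 (adjusted p = 0.096). That value was 2.34 (adjusted p = 0.017) without unfasted mutant replicate 4 and 1.18 (adjusted p = 0.13) without unfasted mutant replicate 1.

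Cyp7b1, the oxysterol hydroxylase of the alternative route, was the gene with the largest fall among the 10. It read 8.58, 8.28, 9.21 and 9.06 in fasted mutants against 10.56, 10.85, 11.68 and 11.21 in fasted heterozygotes. Unfasted mutants read 9.41, 9.38, 9.14 and 9.27 against 12.24, 11.46, 12.16 and 12.36 in unfasted heterozygotes. Every mutant lay below every heterozygote of either feeding state. The difference was -2.29 ± 0.24 in the fasted state (4.9-fold, adjusted p = 6.7e-05) and -2.76 ± 0.24 in the unfasted state (6.77-fold, adjusted p = 1.5e-05). Both calls held in all 25 other settings. The fasted heterozygotes averaged 11.08 ± 0.49 against 12.06 ± 0.41 in unfasted heterozygotes (SD, n = 4 each), a difference of -0.98 ± 0.24 just outside the threshold (adjusted p = 0.058). It was called in 6 of the 25 other settings, with adjusted p of 0.047 without fasted mutant replicate 2, 0.033 without fasted heterozygous replicate 3 and 0.023 without unfasted heterozygous replicate 2.

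The group levels of Cyp7b1 ran from unfasted heterozygotes at the top through fasted heterozygotes and unfasted mutants to fasted mutants at the bottom. Of the neighbours in that order only unfasted mutants and fasted heterozygotes were told apart, at -1.78 ± 0.24 (adjusted p = 0.00042). Fasted minus unfasted mutants gave -0.51 ± 0.24 (adjusted p = 0.23).

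Cyp39a1, which hydroxylates oxysterols in the alternative route, moved the other way. It read 12.01, 12.00, 11.52 and 12.05 in fasted mutants against 10.75, 10.60, 10.83 and 10.16 in fasted heterozygotes. Unfasted mutants read 11.98, 11.78, 11.80 and 11.50 against 10.26, 10.81, 9.34 and 8.84 in unfasted heterozygotes. All 8 mutants, between 11.50 and 12.05, lay above all 8 heterozygotes, between 8.84 and 10.83. The rise was 1.31 ± 0.31 in the fasted state (2.48-fold, adjusted p = 0.011) and 1.95 ± 0.31 in the unfasted state (3.87-fold, adjusted p = 0.0016), and both calls held in all 25 other settings. The unfasted heterozygotes spread widely, with an SD of 0.88 against 0.20 in unfasted mutants. The order of levels was fasted mutants, unfasted mutants, fasted heterozygotes, unfasted heterozygotes. Only the middle step was called, unfasted mutants minus fasted heterozygotes at 1.18 ± 0.31 (adjusted p = 0.021). Fasted minus unfasted heterozygotes gave 0.77 ± 0.31 (adjusted p = 0.28), or 1.10 (adjusted p = 0.049) without unfasted heterozygous replicate 2.

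Cyp27a1, the mitochondrial enzyme that starts the alternative route on the side chain, differed by little. It read 12.01, 11.71, 12.13 and 12.00 in fasted mutants against 12.47, 12.36, 12.46 and 12.44 in fasted heterozygotes, with every mutant below every heterozygote. The fall of 0.47 ± 0.09 on the log2 scale was called (adjusted p = 0.0033). Unfasted livers overlapped, with means of 12.18 ± 0.13 in mutants and 12.29 ± 0.13 in heterozygotes (SD, n = 4 each), and the difference of -0.11 ± 0.09 was not called (adjusted p = 0.54).

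Cyp7a1 of the classic route was set beside Cyp7b1 of the alternative route by the level of Cyp7a1 minus that of Cyp7b1. This difference, taken in each liver, was set to average 0 in unfasted heterozygotes. It averaged 3.28 ± 0.44 in fasted mutants, 1.47 ± 0.26 in fasted heterozygotes and 3.33 ± 0.78 in unfasted mutants, with an SD of 0.31 in unfasted heterozygotes (n = 4 each). The lowest mutant value was 2.48 and the highest heterozygous value 1.74. Of the pair, Cyp7b1 was called between genotypes and Cyp7a1 was not. Cyp39a1, also of the alternative route, rose in mutants, by 1.31 fasted and 1.95 unfasted. The difference therefore describes this pair and not the balance of the routes. Cyp8b1 belongs to the classic route, as Cyp7a1 does. The same quantity for Cyp7a1 minus Cyp8b1 averaged 0.27 ± 0.88 in fasted mutants, -0.49 ± 0.51 in fasted heterozygotes and 2.52 ± 1.03 in unfasted mutants. Without the liver holding acinar transcripts, the highest of them, the unfasted mutants averaged 2.12 ± 0.82 (n = 3). The unfasted mutants, from 1.18 to 3.69, all lay above the unfasted heterozygotes, from -0.28 to 0.71, and the fasted groups overlapped. These values are descriptions and were not tested.

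**Figure D3:**
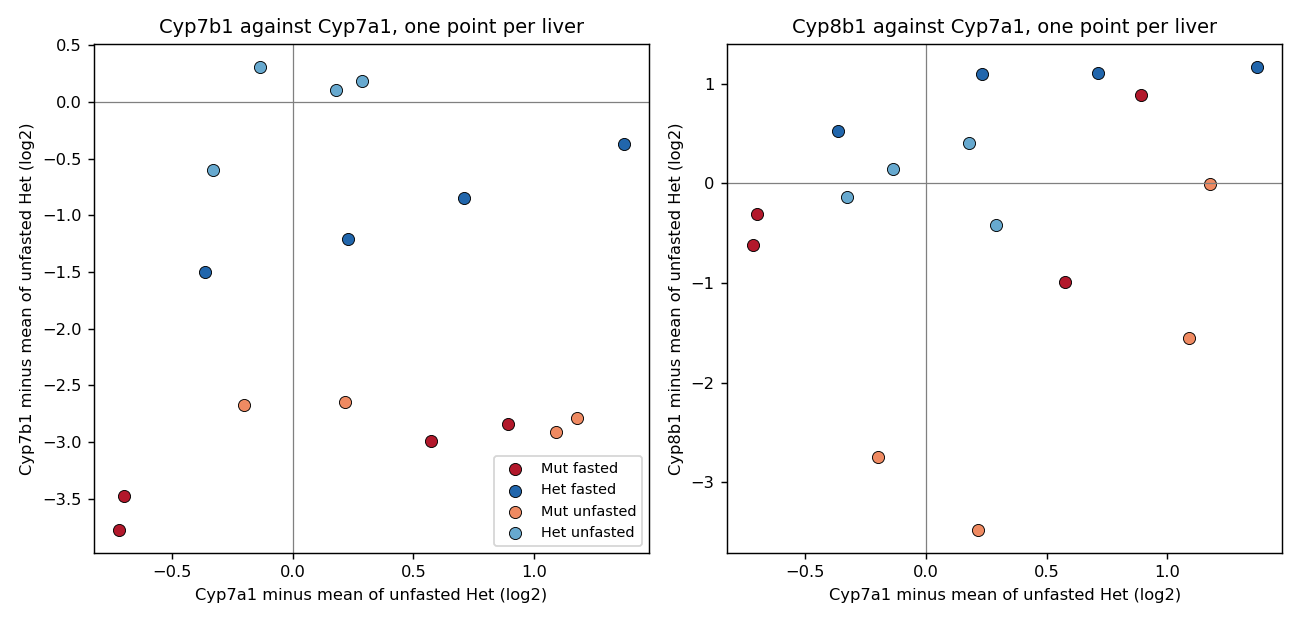
Level of Cyp7b1 (left, vertical axis) and Cyp8b1 (right, vertical axis) against Cyp7a1 (horizontal axes) in each liver, as log2 differences from the mean of unfasted heterozygotes. In the left panel the 8 mutants form a band below the heterozygotes at all levels of Cyp7a1, and in the right panel 3 unfasted mutants are lowest for Cyp8b1.

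Akr1d1, the ring reductase shared by both routes, fell in fasted mutants. It read 9.60, 9.89, 10.78 and 10.50 in fasted mutants against 11.05, 11.28, 11.44 and 11.06 in fasted heterozygotes. No fasted mutant reached the heterozygous range, and the difference was -1.02 ± 0.20 (2.0-fold, adjusted p = 0.0044). Unfasted livers overlapped, at 11.05 ± 0.11 in mutants and 11.14 ± 0.25 in heterozygotes (SD, n = 4 each, adjusted p = 0.85). Fasted mutants also lay below unfasted mutants, with a difference of -0.86 ± 0.20 (adjusted p = 0.029). That call was lost when replicate 2, 3 or 4 of the unfasted mutants or replicate 1 or 2 of the fasted mutants was left out, with array weights, and in a fit of the 8 compared arrays, with adjusted p between 0.052 and 0.15.

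The conjugating enzymes Slc27a5 (bile acyl-CoA synthetase) and Baat (the amino acid transferase) were lower in fasted mutants. Slc27a5 read 11.67, 11.67, 12.25 and 11.75 in fasted mutants against 12.40, 12.38, 12.29 and 12.40 in fasted heterozygotes. Fasted mutant replicate 3 came close to the lowest heterozygote without reaching it, and the fall was 0.53 ± 0.11 on the log2 scale (adjusted p = 0.0064). In unfasted livers Slc27a5 overlapped between genotypes, with a difference of -0.21 ± 0.11 (adjusted p = 0.28).

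Baat read 9.90, 10.23, 10.56 and 10.40 in fasted mutants against 10.99, 10.87, 11.25 and 11.06 in fasted heterozygotes. It read 10.70, 10.57, 10.43 and 10.55 in unfasted mutants against 10.91, 10.85, 11.10 and 11.03 in unfasted heterozygotes. Mutants lay below heterozygotes without overlap in both states. The fall was 0.77 ± 0.12 on the log2 scale after the fast (adjusted p = 0.0011), which held in all 25 other settings. In the unfasted state it was 0.41 ± 0.12 (adjusted p = 0.045). The unfasted call was lost in 12 of 25 settings, with adjusted p up to 0.14: after a second quantile normalization, and when 1 of these livers was left out: mutant replicates 2, 3 and 4 and heterozygous replicates 1, 3 and 4 of the unfasted mice, mutant replicates 2 and 4 and heterozygous replicates 1, 2 and 4 of the fasted mice. Groups did not overlap for 23.7% of all genes in the fasted and 12.0% in the unfasted comparison. Over both states, all 8 mutants lay between 9.90 and 10.70 and all 8 heterozygotes between 10.85 and 11.25. The share of all genes separated over both states, as Baat, Cyp7b1 and Cyp39a1 were, was not computed.

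Nr1h4, the FXR gene, was not called in any comparison. It read 10.91 to 11.37 in fasted mutants against 11.23 to 11.47 in fasted heterozygotes, and 11.15 to 11.42 in unfasted mutants against 10.96 to 11.41 in unfasted heterozygotes. The differences were -0.15 ± 0.11 (adjusted p = 0.36, 95% confidence interval -0.39 to 0.08) and 0.0069 ± 0.11 (adjusted p = 0.98, interval -0.23 to 0.24).

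Nr0b2, which encodes the repressor SHP, fell in fasted mutants. It read 9.0, 8.43, 8.12 and 9.15 in fasted mutants against 10.65, 10.27, 9.77 and 9.60 in fasted heterozygotes, without overlap. The difference was -1.40 ± 0.31 (2.63-fold, adjusted p = 0.0088) and was called in all 25 other settings. Unfasted mutants read 10.05, 9.20, 9.33 and 10.34 against 9.20, 10.15, 10.19 and 9.52 in unfasted heterozygotes, ranges that nearly coincide (-0.035 ± 0.31, adjusted p = 0.97). The 4 fasted mutants also lay below the 4 unfasted mutants, with a difference of -1.06 ± 0.31 that was not called (adjusted p = 0.071). Groups did not overlap in this comparison for 10.03% of all genes. Against fasted heterozygotes neither Cyp7a1 (-0.48) nor Cyp8b1 (-1.23), the genes that SHP is known to repress, was called in fasted mutants. Against unfasted mutants Cyp7a1 was at -0.56 and Cyp8b1 at 1.69, and neither was called. With single livers left out that Cyp8b1 value ran from 1.18 to 2.34. It was called only without unfasted mutant replicate 4 (adjusted p = 0.017). A link between Nr0b2 and these levels was not tested.

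Promoter sequence was at hand for 5 of the 10 genes, from RefSeq on GRCm38.p6. The 250 bases before the start are shown for Nr0b2 and Cyp8b1, the feedback repressor and the classic route enzyme with the widest range of levels. Capitals mark CAAGG, the core of sites bound by LRH-1 (Nr5a2), and CAAAGTCCA, a form of the site bound by HNF4-alpha (Hnf4a). The window of Nr0b2 is chr4:133553126-133553375, plus strand, and that of Cyp8b1 is chr9:121916306-121916555, minus strand.
Nr0b2: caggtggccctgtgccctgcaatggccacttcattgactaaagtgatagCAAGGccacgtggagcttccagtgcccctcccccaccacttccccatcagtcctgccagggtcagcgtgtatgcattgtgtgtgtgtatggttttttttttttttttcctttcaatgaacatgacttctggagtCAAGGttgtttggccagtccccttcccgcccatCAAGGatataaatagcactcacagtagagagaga
Cyp8b1: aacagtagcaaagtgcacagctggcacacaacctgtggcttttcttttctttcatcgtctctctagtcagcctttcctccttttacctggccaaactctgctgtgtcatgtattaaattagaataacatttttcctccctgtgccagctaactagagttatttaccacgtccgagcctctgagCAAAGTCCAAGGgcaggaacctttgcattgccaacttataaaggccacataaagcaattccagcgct
Both strands were searched for CAAGG, CAAAGTCCA and AGGTCA (the half-site of nuclear receptors), motifs picked after several were tried. Nr0b2 held 3 copies of CAAGG, starting 201, 67 and 34 bases before the start. Cyp8b1 held 1 copy of CAAAGTCCA, 67 bases before the start, overlapping 1 copy of CAAGG at 60. AGGTCA was in neither of these windows. Of 32851 promoter windows of this length 46.0% held CAAGG, 0.38% CAAAGTCCA and 14.0% AGGTCA. A match is a description of the letters and not of binding. Nr5a2 and Hnf4a, named here for their motifs, were not called in any of the 5 contrasts. The difference for Nr5a2 was -0.0077 ± 0.07 in the fasted and -0.16 ± 0.07 in the unfasted genotype comparison, and for Hnf4a it was -0.12 ± 0.08 and 0.024 ± 0.08.

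The diagonal contrasts, which change genotype and feeding together, were used to order the levels. Of the 10 genes 4 were called in unfasted mutants against fasted heterozygotes, 1 higher and 3 lower, where 10.9% of all genes were called, 5.96% higher and 4.9% lower. In fasted mutants against unfasted heterozygotes 7 were called, 1 higher and 6 lower, where 18.3% of all genes were called, 11% higher and 7.24% lower. The largest of these was Cyp7b1 at -3.27 (adjusted p = 9.3e-07). Both counts were the same without unfasted mutant replicate 1, where Cyp39a1 in unfasted mutants against fasted heterozygotes was 1.11 (adjusted p = 0.047).

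Few of the 10 genes were called on fasting within a genotype, which does not show that they moved little. Their median absolute change was 0.40 in mutants and 0.23 in heterozygotes, against 0.082 and 0.054 over all genes. In mutants 1 of 10 was called, Akr1d1, lower, where 3.35% of all genes were called, 2.33% higher and 1.02% lower. That share rests on 667 genes, a number that was 1941 without unfasted mutant replicate 1 and 33 in a fit of the 8 compared arrays. Slc27a5 was called too, with a difference of -0.43, without fasted mutant replicate 3 (adjusted p = 0.019). In heterozygotes none of 10 was called by limma, where 1.57% of all genes were called, 0.732% higher and 0.838% lower. At an unadjusted p under 0.05 there were 1 higher and 1 lower in heterozygotes, Cyp39a1 and Cyp7b1, and 1 higher and 5 lower in mutants. The fasting label was checked in 8 measured genes known to respond to a fast. In mutants 2 rose and 3 fell, and in heterozygotes 3 rose and 3 fell. Fasn, fatty acid synthase, fell by 1.64 ± 0.14 in mutants and fell by 1.72 ± 0.14 in heterozygotes. Srebf1 and Acly, also of lipid synthesis, fell in both genotypes, and Cpt1a and Pck1 rose in both. Angptl4 rose in heterozygotes (1.08 ± 0.18, adjusted p = 0.0088) and was not called in mutants (0.51 ± 0.18, adjusted p = 0.13). Pdk4 (0.50 ± 0.39, adjusted p = 0.45) and Fgf21 (-0.76 ± 0.23, adjusted p = 0.074) were not called in mutants, nor in heterozygotes. Unfasted mutants already differed from unfasted heterozygotes in 4 of the 8, with Pdk4 at 2.17 ± 0.39, Fgf21 at 1.65 ± 0.23, Srebf1 at -1.10 ± 0.17 and Acly at -0.66 ± 0.16.

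None of the 10 genes was called for the interaction of genotype and fasting in limma, where 0.01% of all genes were, and 4 had an unadjusted p under 0.05, all negative. These were Nr0b2 at -1.36 ± 0.44 (adjusted p = 0.37), Akr1d1 at -0.93 ± 0.28 (adjusted p = 0.35), Cyp27a1 at -0.36 ± 0.12 (adjusted p = 0.38) and Baat at -0.36 ± 0.17 (adjusted p = 0.45). That Nr0b2 and Akr1d1 were called after the fast and not before it therefore does not show that their genotype differences differed between states.

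Some of the 10 genes varied together within groups. Deviations from the group mean over 16 arrays correlated at 0.77 between Akr1d1 and Baat, 0.74 between Cyp7a1 and Akr1d1, 0.69 between Cyp7a1 and Cyp7b1, and 0.56 between Cyp7a1 and Cyp8b1. Cyp39a1 ran against several of them, at -0.61 with Slc27a5, -0.47 with Cyp27a1 and -0.45 with Cyp7b1. Of the 45 pairs 13, or 28.9%, were at 0.5 or above, against 7.87% of all gene pairs, and 15 were negative. Nr0b2 correlated at -0.23 with Cyp7a1 and 0.01 with Cyp8b1. The genes of 1 array share its RNA and its hybridization, and these values are a description. Fasted mutant replicates 1 and 2 illustrate the pattern, as they read lower than replicates 3 and 4 for Cyp7a1, Cyp7b1, Akr1d1 and Baat. The labels give 8 to 12 hours for the fasted mutants as a group.

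Genes whose levels followed single members closely over the 16 arrays were found by Pearson correlation, which here mostly reflects the 4 group levels. Predicted genes, clones, olfactory receptor, small RNA and major urinary protein (Mup) genes were left out of this search. Cyp7b1 was followed by Obp2a (0.97), Scnn1a (0.96) and Ttc39c (0.96). Cyp8b1 was followed by Adcy9 (0.96), Dlg3 (0.94) and Fam13a (0.91), and Cyp39a1 by Alpl (0.95), Gpat3 (0.94) and Sgce (0.94). Correlations were weaker for Cyp7a1, with Plcd4, Ccdc187 and Zfp804b at 0.80 to 0.81, and for Nr0b2, with B4galt7, Zcwpw2 and Gpr15 at 0.81 to 0.82.

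Cyp39a1 lies on chromosome 17, as does Mmut, and 12 measured genes stood between them in the gene order of GRCm38.p6. Of these 12 genes 4 were called higher and 1 lower in fasted mutants, and 4 higher and none lower in unfasted mutants, where 8.62% and 4.25% of all genes were called higher. The gene called lower, Adgrf4, differed by -0.10 at a mean level of 5.06, where 5.01% of all genes were called lower. The medians of the 12 were -0.031 and 0.056. Adgrf4 and the genes of the 12 called in neither state averaged below the median level of every array. The medians therefore rest largely on dim genes. Slc25a27, a mitochondrial carrier next to Cyp39a1, had the smallest p of the 12 in both states. It read 8.11, 8.11, 8.09 and 8.03 in fasted mutants against 7.59, 7.57, 7.72 and 7.46 in fasted heterozygotes. It rose by 0.50 ± 0.06 after the fast (adjusted p = 0.00019) and by 0.46 ± 0.06 without it (adjusted p = 0.00054). Cd2ap, an adaptor protein, rose by 0.44 in fasted mutants (adjusted p = 0.0011). These calls held in all 25 other settings.

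Pla2g7, a secreted phospholipase of macrophages, read 10.41, 10.29, 10.07 and 10.05 in fasted mutants against 9.48, 9.04, 9.24 and 8.66 in fasted heterozygotes. It rose by 1.10 ± 0.21 after the fast (adjusted p = 0.0041) and by 1.22 ± 0.21 without it (adjusted p = 0.0033). Tnfrsf21, a death receptor, rose by 0.77 ± 0.16 (adjusted p = 0.0057) and 0.78 ± 0.16 (adjusted p = 0.0076), the second of which was not called in a fit of the 8 compared arrays (adjusted p = 0.061).

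Adgrf5, an adhesion receptor, was called in unfasted mutants at 0.60 ± 0.17 (adjusted p = 0.041), against 0.38 ± 0.17 in the fasted comparison (adjusted p = 0.14). It lost its unfasted call in 11 of 25 settings (adjusted p up to 0.14). These were the 8 compared arrays fitted alone, median-centred arrays, and single livers left out: mutant replicates 1, 2 and 3 and heterozygous replicates 3 and 4 of the unfasted mice, mutant replicates 2 and 4 and heterozygous replicates 1 and 2 of the fasted mice. Beyond Cyp39a1, Enpp5 fell by 0.74 ± 0.16 in unfasted mutants (adjusted p = 0.011). In the fasted comparison Enpp4 there rose by 0.29 (adjusted p = 0.034) and 4930564C03Rik fell by 0.17 (adjusted p = 0.047), calls that were lost in 8 of 25 and 11 of 24 settings. None of the 10 measured genes on the far side of Mmut was called by limma, with 1 lower in the fasted and 1 higher in the unfasted state at an unadjusted p under 0.05. All but 1 of these 10 averaged 4.67 to 6.33 over the arrays. Those levels lie below the median level of every array, so the missing calls say little. The macrophage and endothelial markers given above moved with genotype beside Pla2g7, Tnfrsf21 and Adgrf5, and their part in these levels was not tested. Whether the position of Cyp39a1 near the mutated gene has a part in its level was not tested.

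**Figure D4:**
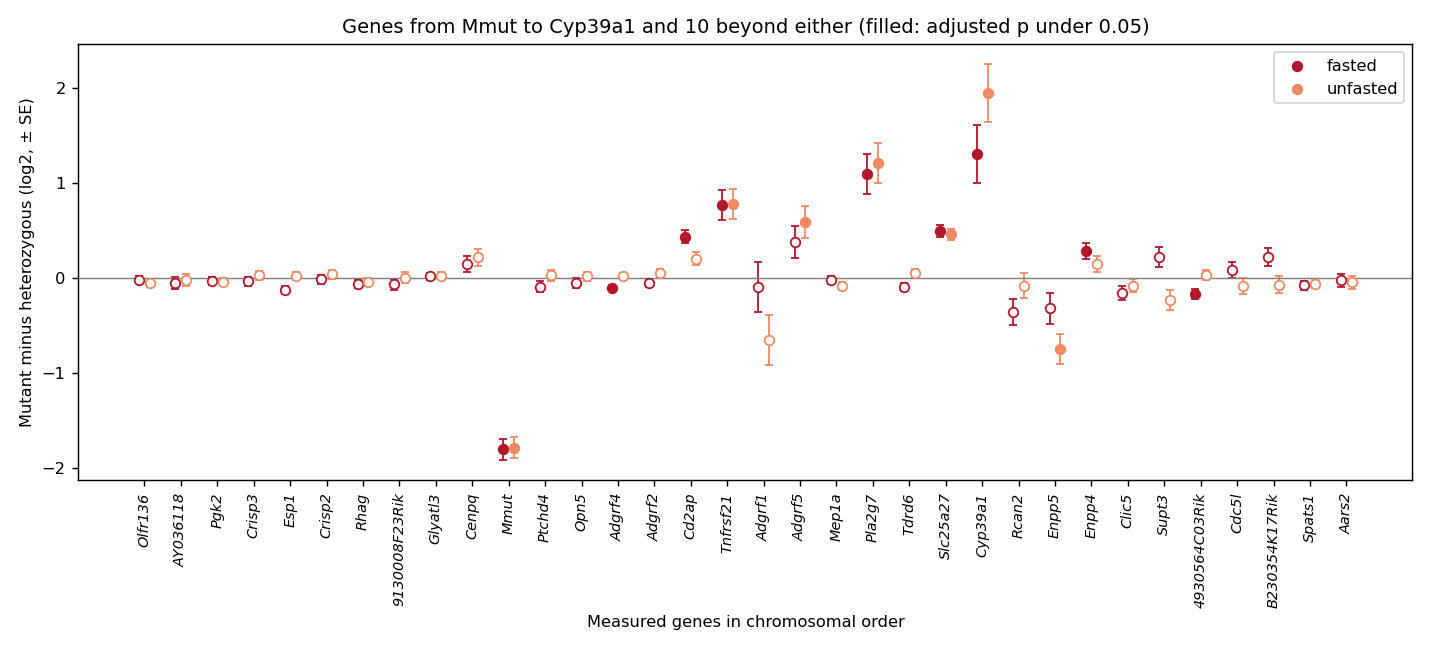
Mutant minus heterozygous log2 difference (vertical axis, ± SE) for measured genes in their order on the chromosome (horizontal axis), from 10 genes before Mmut to 10 beyond Cyp39a1; dark red is fasted, orange unfasted, and filled points have an adjusted p under 0.05. Mmut is the lowest point and Cyp39a1 the highest, with Pla2g7, Tnfrsf21 and Slc25a27 between them also filled above 0 in both states.

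Between genotypes, further enzymes of the pathway were called at about the rate of all genes. Of 15 further enzymes none rose and 2 fell in fasted mutants, and none rose and 1 fell in unfasted mutants, where 13.6% and 7.94% of all genes were called, with median differences of -0.13 and -0.11. Acnat2, a relative of Baat, read 9.54, 10.14, 10.25 and 10.25 in fasted mutants against 11.75, 11.51, 11.33 and 11.46 in fasted heterozygotes. It fell by 1.47 ± 0.24 on the log2 scale (adjusted p = 0.0017), and its close copy Acnat1 on the array makes its identity uncertain. Cyp46a1, cholesterol hydroxylase known from brain, fell by 0.30 ± 0.07 in fasted mutants (adjusted p = 0.0099). Scp2, the peroxisomal thiolase of side chain shortening, fell by 0.30 ± 0.06 in unfasted mutants (adjusted p = 0.0069).

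Within genotypes the same 15 enzymes gave 1 rise and 2 falls on fasting in mutants, and 3 rises and 1 fall in heterozygotes. The shares of all genes called were 3.35% and 1.57%. Cyp2c70, which makes the muricholic acids of mice, fell by 1.25 ± 0.27 in fasted mutants against unfasted mutants (adjusted p = 0.020). Akr1c6, a hydroxysteroid dehydrogenase, fell by 0.40 ± 0.08 in mutants (adjusted p = 0.016) and 0.34 ± 0.08 in heterozygotes (adjusted p = 0.041). Acot8, a peroxisomal thioesterase, rose by 0.30 ± 0.07 in mutants (adjusted p = 0.024) and 0.43 ± 0.07 in heterozygotes (adjusted p = 0.0064). In heterozygotes Acnat2 rose by 1.16 ± 0.24 (adjusted p = 0.023) and Slc27a2, an acyl-CoA synthetase, by 0.20 ± 0.04 (adjusted p = 0.032). Of these calls Acot8 in heterozygotes held in all 25 other settings, and the others were lost in 2 to 7 of them, with adjusted p up to 0.12, in most cases when 1 liver of the compared groups was left out.

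Regulators upstream of the enzymes gave 1 rise and 2 falls among 14 measured genes in fasted mutants and 1 fall in unfasted mutants. Of all genes 13.6% and 7.94% were called in these comparisons. Fgfr4, the liver receptor of the gut hormone FGF15, which lowers Cyp7a1, read 8.37, 8.34, 8.69 and 8.73 in fasted mutants against 9.55, 9.45, 9.07 and 9.46 in fasted heterozygotes. It fell by 0.85 ± 0.18 (adjusted p = 0.0070) without overlap, and held in all 25 other settings. In unfasted mutants it fell by 0.63 ± 0.18 (adjusted p = 0.046), a call lost in 13 of 25 settings (adjusted p up to 0.14). It failed with the 8 compared arrays fitted alone, and when mutant replicate 1, 2 or 3 or heterozygous replicate 2, 3 or 4 of the unfasted mice, or mutant replicate 2, 3 or 4 or heterozygous replicate 1, 2 or 4 of the fasted mice, was left out. Mafg, a repressor induced by FXR, fell by 0.35 ± 0.08 in fasted mutants (adjusted p = 0.0081), and Ppargc1a, a coactivator of the fasted liver, rose by 0.98 ± 0.26 (adjusted p = 0.023). The second call was lost when fasted mutant replicate 1 or 2, or heterozygous replicate 1 or 4, was left out (adjusted p up to 0.073).

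On fasting, Klb, the partner of Fgfr4, rose by 0.60 ± 0.09 in mutants (adjusted p = 0.0043), as did Ppargc1a by 1.33 ± 0.26 (adjusted p = 0.015). Both calls were lost only in a fit of the 8 compared arrays. Nr1i3, the xenobiotic receptor CAR, rose by 0.75 ± 0.18 in heterozygotes (adjusted p = 0.048) and lost its call in 17 of 25 settings (adjusted p up to 0.13), among them every single liver left out except unfasted mutant replicates 1 and 3 and unfasted heterozygous replicate 1.

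Among 7 transporters tied to FXR and bile flow 1 was called in fasted mutants and none in unfasted mutants by limma. The shares of all genes called were 13.6% and 7.94%. In the unfasted comparison 1 transporter was higher and 1 lower at an unadjusted p under 0.05. Abcb11, the bile salt export pump and a known FXR target, read 11.31, 11.48, 11.57 and 11.76 in fasted mutants against 12.05, 12.02, 11.95 and 11.99 in fasted heterozygotes. It fell by 0.47 ± 0.11 without overlap (adjusted p = 0.0087), and by 0.60 ± 0.11 in fasted against unfasted mutants (adjusted p = 0.0099). Abcb4, the phospholipid flippase, rose by 0.41 ± 0.09 in that second comparison (adjusted p = 0.024). Both fasting calls were lost in a fit of the 8 compared arrays, with adjusted p up to 0.089, and that of Abcb4 also when replicate 2 of the unfasted mutants or replicate 2 or 3 of the fasted mutants was left out. Abcb11 and Nr0b2 thus both read lowest in fasted mutants. Abcb4 ran the other way, with its highest group mean there, 12.47 against 12.20 in fasted heterozygotes. Abcc2 and Slc51a were not called in the fasted genotype comparison, at -0.029 and -0.076. Slc51b, another known FXR target, read 6.13 to 7.05 over all 16 arrays and was not called. Slc51a read 6.47 to 6.91. The levels of Slc51a and Slc51b lie below the median level of every array, so their missing calls say little.

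Because Cyp7a1 follows a daily rhythm in mouse liver, 15 clock genes were read beside it. One was called, Dbp, an output factor of the clock, at 9.49, 9.43, 9.43 and 9.33 in fasted mutants against 8.01, 8.76, 7.88 and 8.50 in fasted heterozygotes. It rose by 1.14 ± 0.30 (adjusted p = 0.021), a call lost when fasted mutant replicate 2 or heterozygous replicate 1 or 3 was left out (adjusted p up to 0.064). In that comparison 13.6% of all genes were called. At an unadjusted p under 0.05 there were 3 higher and 2 lower among the 15. Arntl, Nfil3, Per3, Nr1d2 and Hlf, named after their values were seen, did not overlap either, as was so for 23.7% of all genes. Arntl was at -0.85 ± 0.30 (adjusted p = 0.070), Nfil3 at -0.79 ± 0.27 (adjusted p = 0.064), Per3 at 0.81 ± 0.26 (adjusted p = 0.052) and Nr1d2 at 0.27 ± 0.11 (adjusted p = 0.12). Hlf, lower in fasted mutants, was at -0.25 ± 0.13 (adjusted p = 0.21). None of the 15 was called by limma in the unfasted genotype comparison, where 4 were higher and 2 lower at an unadjusted p under 0.05. None was called on fasting either, with 1 higher and 2 lower in mutants and 1 higher and 3 lower in heterozygotes at that level. The hour at which the livers were taken is not given in the sources used here, and the part of the clock in these levels was not tested.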

How the data were processed

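Liver RNA of 16 mice was measured on Affymetrix Mouse Gene 1.0 ST arrays. The authors deposited log2 values that, per the submitters' processing notes, were made with Affymetrix Expression Console and RMA (background correction, quantile normalization, probe summary). Versions and the annotation build are left unstated in the sources used here. The log2 scale was taken from the range, 3.80 to 14.33. The number of arrays limits the precision, and no detection calls were used. Of 35556 probe sets, 21789 had 1 symbol in the platform annotation, updated through RefSeq gene numbers. The probe set with the highest mean stood for a gene, which left 19938 genes. The test was limma (3.58.1, R 4.3.3) with 1 mean per group, variance moderation with an intensity trend, two-sided tests and Benjamini-Hochberg adjustment over all genes. The step was tested on simulated data. The text names the 10 genes, Mmut, called genes of fixed pathway lists (up to 4 per list and contrast), the 3 genes most like 5 of the enzymes, up to 4 called neighbours of Cyp39a1, marker genes that stood apart on 1 array, and a few others chosen after their values were seen (Nr5a2, Hnf4a, Alb, Ttr, Slc51b, the clock genes Arntl, Nfil3, Per3, Nr1d2 and Hlf, the fasting check genes, Slc10a2, Sox9, Tspan8, Slc25a27, Cd2ap, Adgrf4, Enpp4 and 4930564C03Rik). Members, lists and tests were chosen with earlier results of these data known. Nothing says which mice were littermates or that same-numbered arrays are pairs, so they were not treated as pairs. Deviations of same-numbered arrays correlated between -0.12 and 0.25 (median 0.0655). Other pairs of arrays from different groups gave -0.35 to 0.33 (median -0.0318). Other settings were a replicate block, the compared arrays only, array weights, 2 normalizations, 2 moderation settings, the mean over probe sets, brighter genes only, and leaving out each array.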

Additional observations from a re-analysis of the deposited data

Results flagged for a closer look

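Of 40 gene and group combinations, 4 held a liver far from the other 3 of its group, where chance gives about 1 in 20. Fasted mutant replicate 3 was such a liver for both Cyp39a1, at 11.52 against 12.00 to 12.05, and Slc27a5, at 12.25 against 11.67 to 11.75. Unfasted mutant replicate 4 read Slc27a5 at 12.34, against 12.04 to 12.09 in the other unfasted mutants. Fasted heterozygous replicate 1 read Cyp8b1 at 11.79, against 12.36 to 12.43 in the other fasted heterozygotes.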

How the results depend on the processing

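Of 12 calls among the 10 genes in 5 contrasts, 9 held in every setting tried. Not every setting could move them equally. Each of the 10 genes has 1 probe set, so the mean over probe sets could not change its levels. Leaving out an array outside the compared groups left a difference as it was, and could change only its error and adjusted p. Those lost in some were Cyp8b1 and Baat in the unfasted genotype comparison and Akr1d1 on fasting in mutants. Leaving out single arrays gave 7 to 8 called members in the fasted genotype comparison, 2 to 4 in the unfasted one, 0 to 2 on fasting in mutants, 0 to 2 on fasting in heterozygotes, and 0 for the interaction. On fasting in mutants, the compared arrays alone and array weights gave 0 and brighter genes gave 2. On fasting in heterozygotes, the compared arrays alone, array weights, brighter genes and the replicate block each gave 1. Over all genes, leaving out single arrays gave 1575 to 3180 calls in the fasted genotype comparison, 698 to 1781 in the unfasted one, 224 to 1941 on fasting in mutants, 155 to 358 on fasting in heterozygotes and 0 to 6 for the interaction. The compared arrays alone gave 764 in the unfasted genotype comparison, 33 on fasting in mutants and 568 on fasting in heterozygotes, and array weights gave 1029 in the last. For the interaction, array weights and median-centred arrays gave 1, and robust moderation and brighter genes 0. The cause of these shifts was not tested.

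Signs turned only for differences near 0. Without single arrays Nr0b2 ran from -0.24 to 0.14 and Nr1h4 from -0.092 to 0.057 between unfasted genotypes, Nr1h4 from -0.097 to 0.059 on fasting in mutants, and Akr1d1 from -0.034 to 0.15 and Slc27a5 from -0.031 to 0.064 on fasting in heterozygotes. With median-centred arrays Nr1h4 was -0.038 between unfasted genotypes. The replicate block kept every count of called members but that of fasting in heterozygotes, where Cyp7b1 passed (adjusted p = 0.029). Of 48 comparisons of an array with another group, its own number was the closest match in 19. For genes outside the 10, the settings were added after seeing the data. The fit of the compared arrays alone was not run for the interaction, which uses all 4 groups.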
